A study of Homo sapiens with 36 samples.

Results

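hsa-miR-204-5p and hsa-miR-211-5p are the mature 5′ arms of a pair of related human microRNAs (miRNAs), and they were taken by name from the 7 tables of a small RNA sequencing study. They are 2 of 509 miRNA names, and they fill 10 of the 2453 rows of the 7 tables. hsa-miR-204-5p was listed in all 7 tables, whereas hsa-miR-211-5p was listed in 3 of them. Of the 509 names, 12 end in 3p, and the 3p arm of neither hairpin was listed.

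The study asked what added chromosomes do to miRNA abundance, with 36 libraries in 12 groups of 3. HCT116 is a near-diploid line from a colorectal carcinoma, and RPE1 is a line of retinal pigment epithelium made immortal with hTERT, the catalytic subunit of telomerase. HCT116 5/4 carries 4 copies of chromosome 5 and was set against HCT116. HCT116 18/3 c2, HCT116* 3/3 c11 and HCT116* 8/3 c7 carry 3 copies of chromosome 18, 3 and 8. All are taken here as set against the same HCT116* libraries, where the asterisk stands for cells with a GFP-tagged histone H2B. HCT116 18/3 c2 has no asterisk, so HCT116* is not its parental line. The study's list of detected miRNAs places this line with HCT116, and its methods name the corresponding parental line as control. RPE1 5/3 12/3 carries 3 copies of chromosomes 5 and 12 and was set against RPE1. RPE1* 21/3 carries 3 copies of chromosome 21 and was set against RPE1* libraries 1 to 3. RPE1* 7/3 carries 3 copies of chromosome 7 and was set against RPE1* libraries 11 to 13. The cell line list of the study adds that chromosome 12 was gained spontaneously in RPE1 5/3 12/3, and chromosomes 9 and 12 in RPE1* 7/3, whereas the sample labels of RPE1* 7/3 name chromosome 7 only. Lines marked c grew from a single cell, most lines were made by transfer of a chromosome in a microcell, and all cells were untreated and grown in the same medium. Each line is therefore 1 line or clone, and its 3 libraries do not stand for separate gains of the chromosome.

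miRNAs of about 22 bases guide silencing complexes to messenger RNAs, mainly by pairing through the seed, which is bases 2 to 8. miR-204 is encoded in an intron of TRPM3 and miR-211 in an intron of TRPM1, and both host genes encode cation channels of the melastatin family. Both miRNAs are known for high levels in the pigment epithelium of the retina, where they help to keep the cells epithelial and differentiated. miR-211 is also known from pigment cells of the skin, where the transcription factor MITF drives TRPM1.

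The mature sequences are shown 5′ to 3′ because the pair share a seed and may share reads. They come from RefSeq, and the capitals mark the seed.
hsa-miR-204-5p: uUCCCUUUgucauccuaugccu
hsa-miR-211-5p: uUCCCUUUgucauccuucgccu
The seed UCCCUUU was held by these 2 among the 2370 mature miRNAs of the RefSeq table. Both are 22 bases long, and 20 bases are identical. Counted from the 5′ end, with the base of hsa-miR-204-5p first, they differ by A17U and U18C, so that the first 16 bases are the same in both. The authors kept reads of 18 bases or more, so a read that starts at the first base covers both positions. A read that carries an error there may be assigned to the other miRNA. The hairpins differ more, with 110 bases each and 74 identical positions in an alignment of 119 (62.2%).

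On GRCh37, the build to which the authors mapped the reads, the MIR204 hairpin lies on the minus strand of chromosome 9 at chr9:73424891-73425000, and its mature 5′ arm at chr9:73424947-73424968. TRPM3 spans chr9:73143976-74061820 on the same strand. Of its 29 annotated transcripts 26 span the hairpin, and 0 exons overlap it, so the position is intronic. The MIR211 hairpin lies on the minus strand of chromosome 15 at chr15:31357235-31357344, and its mature arm at chr15:31357298-31357319. TRPM1 spans chr15:31293268-31453363 on the same strand, with 7 of 11 transcripts across the hairpin and 0 exons over it. Among the gains listed for these lines, the recorded gain of chromosome 9 in RPE1* 7/3 is the only one that takes in either locus.

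Each table gives for every listed miRNA the authors' mean of normalised reads over the 6 libraries of a line and its control. That mean is 1 value for both groups, with no spread between replicates. It is given here also as reads per 1000000 (RPM) of the summed mean of its table. The authors normalised each table separately, so a level set against that of another table rests on this second scaling. Whether a line differed from its control was not analysed here. A mean over 2 groups of equal size does set limits. Neither group can lie above 2 times the mean, and at least 1 of the 2 groups lies at or above the mean. The summed means ran from 5556870 in HCT116 5/4 to 11221232 in RPE1* 7/3, and the 10 most abundant miRNAs took 88.9 to 94.6% of them. The depth of single libraries is unknown, so no counting intervals can be given.

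hsa-miR-204-5p was abundant in the tables of RPE1 cells and scarce in those of HCT116 cells. Its authors' mean was 18.4 reads in HCT116 5/4, 27.9 in HCT116 18/3 c2, 29.7 in HCT116* 8/3 c7 and 40.3 in HCT116* 3/3 c11. It was 3458 reads in RPE1 5/3 12/3, 4173 in RPE1* 21/3 and 16266 in RPE1* 7/3. The 4 HCT116 tables lay together at the low end and the 3 RPE1 tables stood apart above them, with no overlap. In RPM the order was HCT116 5/4 with 3.302, HCT116 18/3 c2 with 3.50, HCT116* 8/3 c7 with 3.78 and HCT116* 3/3 c11 with 4.50. It continued with RPE1 5/3 12/3 at 379.5 RPM, RPE1* 21/3 at 518 RPM and RPE1* 7/3 at 1450 RPM. The lowest RPE1 table was 84.3 times the highest HCT116 table in RPM, and the highest RPE1 table was 439 times the lowest HCT116 table. This last ratio was 886 with the means as deposited, 1053 with median-of-ratios factors and 816 with totals that leave out the 10 most abundant miRNAs.

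The limits of a pooled mean bear on this gap. No HCT116 group, line or control, can have exceeded 2 times its table's mean, and the highest of these limits was 9.001 RPM, in the table of HCT116* 3/3 c11. In every RPE1 table at least 1 of the 2 groups had 379.5 RPM or more. At least 1 group of each RPE1 table was therefore 42.2 times or more the level that any HCT116 line or control could have had on this scale. With median-of-ratios factors the gap of 84.3 times became 166 times, and with totals that leave out the 10 most abundant miRNAs 153 times. In a bulk library, fewer cells with the miRNA and less of it per cell cannot be told apart.

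Neighbours in this order did not all lie beyond what the tables can resolve. The 4 HCT116 tables spread over 1.36 times, and over 2.19 times with the means as deposited. The 3 tables taken to be on the same HCT116* libraries alone spread over 1.29 times, although these would then share their control libraries. The parts of the line, of the normalisation and of the scaling in this spread cannot be told apart. RPE1* 21/3 over RPE1 5/3 12/3 was 1.36 times in RPM and 1.21 times with the means as deposited. The step from RPE1* 21/3 to RPE1* 7/3 was larger, at 2.80 times, and that from RPE1 5/3 12/3 to RPE1* 7/3 was 3.82 times. With no values of single libraries, none of these steps can be set against a replicate spread.

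**Figure D1:**
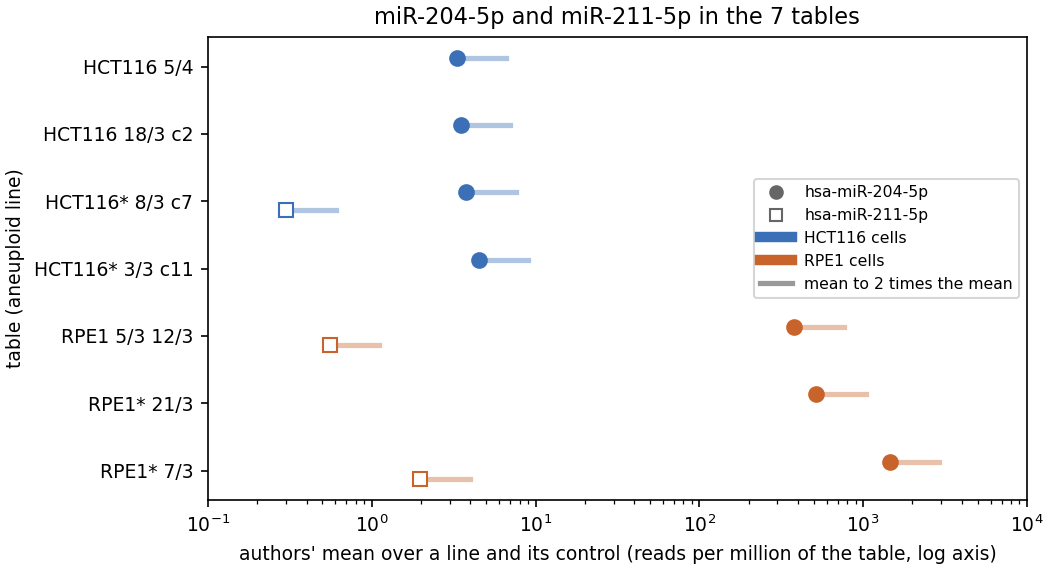
Authors' mean of hsa-miR-204-5p (filled circles) and hsa-miR-211-5p (open squares) in each table, in RPM on a log axis, with HCT116 tables in blue and RPE1 tables in orange. Each line runs from the mean to 2 times the mean, the highest level that the aneuploid line or its control could have; hsa-miR-204-5p lay at 3.302 to 4.50 in HCT116 tables and at 379.5 to 1450 in RPE1 tables.

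The rank within a table does not depend on the scaling between tables. hsa-miR-204-5p ranked 21 of 403 listed miRNAs in RPE1* 7/3, 35 of 273 in RPE1* 21/3 and 38 of 297 in RPE1 5/3 12/3, so that 87.2 to 94.8% of the listed miRNAs lay below it. In RPE1* 7/3 its neighbours in rank were hsa-miR-379-5p with 1503 RPM and hsa-miR-30c-5p with 1390 RPM. In RPE1* 21/3 they were hsa-miR-182-5p with 558 RPM and hsa-miR-221-5p with 498 RPM, and in RPE1 5/3 12/3 hsa-miR-425-5p with 429 RPM and hsa-miR-183-5p with 375 RPM. In the HCT116 tables it ranked 201 of 279, 205 of 409, 214 of 434 and 214 of 358. There 28.0 to 50.7% of the listed miRNAs lay below it. These shares depend on how far down each table lists miRNAs. Only 12 of the 509 listed names end in 3p. Ranks and RPM therefore place hsa-miR-204-5p among the listed miRNAs, which include few 3p arms by name. Among the 205 miRNAs listed in all tables it ranked 20 to 36 in RPE1 tables and 173 to 183 in HCT116 tables. Its HCT116 neighbours included hsa-miR-1285-5p with 4.56 RPM in HCT116* 3/3 c11 and hsa-miR-18b-5p with 3.28 RPM in HCT116 5/4.

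hsa-miR-211-5p was scarce wherever it was listed. The authors' mean was 22.2 reads in RPE1* 7/3, 5.07 in RPE1 5/3 12/3 and 2.36 in HCT116* 8/3 c7. These are 1.98, 0.556 and 0.301 RPM. It ranked 209 of 403, 291 of 297 and 423 of 434, so that it stood at the very end of the list in 2 tables. In RPE1* 7/3 it stood near the middle, in a list that reaches down to 1.10 reads. RPE1* 21/3, HCT116 5/4, HCT116 18/3 c2 and HCT116* 3/3 c11 did not list it. An unlisted miRNA is no zero, since the lowest mean that a table lists ran from 1.10 reads in RPE1* 7/3 to 11.9 in HCT116* 3/3 c11. The lower of the 2 RPE1 tables that list it was 1.85 times the HCT116 table. With the means as deposited the ratio was 2.15, with median-of-ratios factors 3.78, and with totals that leave out the 10 most abundant miRNAs 3.13. Both values lie close to the lowest level that their tables list. That level was 0.503 RPM in RPE1 5/3 12/3 and 0.274 RPM in HCT116* 8/3 c7. Either group can also reach 2 times its mean, which 1.85 does not exceed. Since the other tables do not list it, the order of the cell types cannot be read on any of these scales. RPE1* 7/3 was 3.55 times RPE1 5/3 12/3. At least 1 group of the RPE1* 7/3 table thus had 1.78 times or more the highest level possible in either group of RPE1 5/3 12/3, on means of 22.2 and 5.07 reads.

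hsa-miR-204-5p far exceeded hsa-miR-211-5p where both were listed. The ratio was 682 in RPE1 5/3 12/3, 733 in RPE1* 7/3 and 12.6 in HCT116* 8/3 c7. Of the reads of both miRNAs together, 99.9% were those of hsa-miR-204-5p in either RPE1 table and 92.6% in the HCT116 table. The RPE1 ratios lay close to each other although both miRNAs were more than 3 times as high in RPE1* 7/3 as in RPE1 5/3 12/3. With 20 of 22 bases shared, a small share of misassigned hsa-miR-204-5p reads would be counted as hsa-miR-211-5p. This was not tested, since the tables hold no reads.

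**Figure D2:**
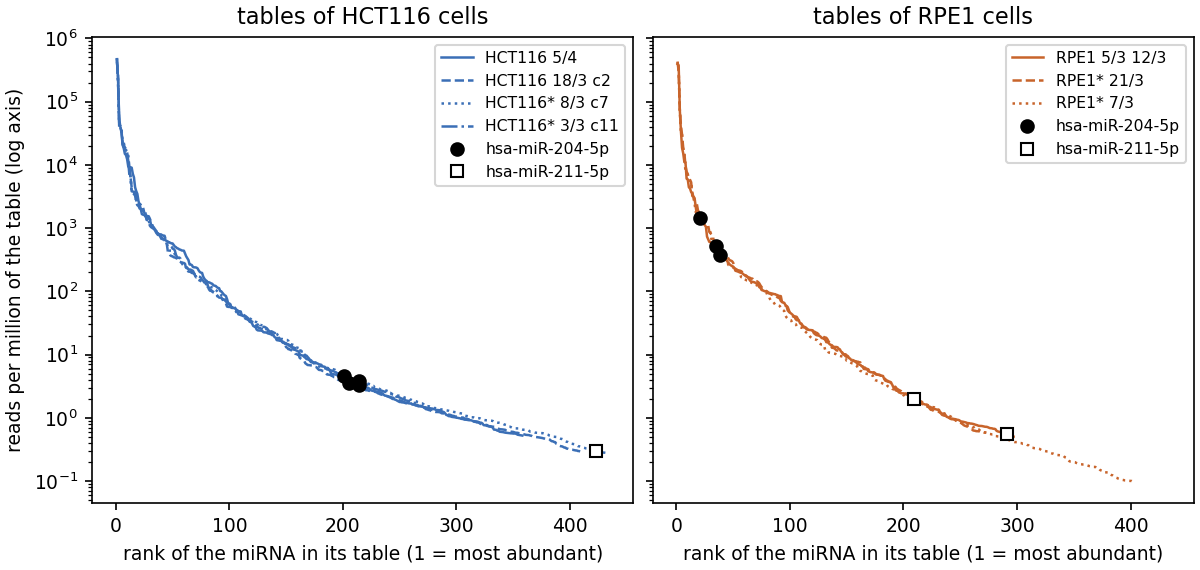
RPM (log axis) of every listed miRNA against its rank in its table, for the 4 HCT116 tables (left) and the 3 RPE1 tables (right), 1 curve per table. hsa-miR-204-5p (black circles) lay at ranks 21 to 38 in RPE1 tables and 201 to 214 in HCT116 tables, and hsa-miR-211-5p (open squares) at rank 209 or beyond.

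Chromosome 9 was looked at because MIR204 lies on it and RPE1* 7/3 is recorded to have gained it. The RPE1* 21/3 table served for comparison, since its lines also derive from RPE1* cells, although its control libraries are others. miRNAs with a mean of at least 10 reads in both tables were used, and a miRNA was counted on a chromosome where all its loci lie on it. For hsa-miR-204-5p the log2 ratio of RPE1* 7/3 over RPE1* 21/3 in RPM was 1.48. It was the highest of the 10 chromosome 9 miRNAs, and 14 of all 217 miRNAs used had a higher ratio, which no scaling between tables can alter. These 14 included hsa-miR-7-5p, encoded on 3 chromosomes, with 6578 RPM against 1310 RPM, and hsa-miR-320b with 645 RPM against 159 RPM; both were picked out after their values were seen.

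The other chromosome 9 miRNAs did not share its ratio. hsa-miR-455-5p, from an intron of the collagen gene COL27A1, had a log2 ratio of 0.86, hsa-miR-3152-5p of 0.65 and hsa-miR-23b-5p of 0.48. hsa-let-7d-5p, of the let-7 family that restrains growth, had 0.12, hsa-miR-32-5p 0.06 and hsa-miR-24-1-5p −0.07. Below them came hsa-miR-27b-5p with −1.03, hsa-miR-31-5p with −1.65 and hsa-miR-126-5p with −1.78. Values of chromosome 9 thus ran from −1.78 to 1.48, with hsa-miR-204-5p at one end. The abundant hsa-miR-31-5p stood at 1028 RPM in RPE1* 7/3 and 3221 RPM in RPE1* 21/3, the opposite order to hsa-miR-204-5p. hsa-miR-23b-5p, hsa-miR-27b-5p and hsa-miR-24-1-5p are known to come from 1 shared transcript, and their log2 ratios spread from −1.03 to 0.48.

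As a group, 6 of the 10 chromosome 9 miRNAs (60%) had a log2 ratio above 0, with a median of 0.09. Over all 217 miRNAs, 100 had one above 0 (46.1%), with a median of −0.15. With the means as deposited, 7 of 10 and 124 of 217 (57.1%) were above 0, with medians of 0.57 and 0.33. Of 22 chromosomes with at least 3 miRNAs, 9 had a higher median than chromosome 9. On chromosome 7, gained in RPE1* 7/3 by its label, 9 of 14 miRNAs were above 0, with a median of 0.10. On chromosome 12, also in the cell line list, 2 of 6 were above 0, with a median of −0.10, whereas 5 of 6 were above 0 with the means as deposited. The median of chromosome 9 lay 0.24 above that of all miRNAs, a difference that scaling between tables cannot alter, and 0.46 above it, over 12 miRNAs, with no minimum mean. The log2 ratio of hsa-miR-204-5p lay 1.64 above the median of all.

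By arithmetic alone, 3 copies in the line against 2 in the control, with a level in proportion to copies and equal controls in both tables, would give a pooled ratio of 1.25, a log2 ratio of 0.32. The ratio of hsa-miR-204-5p was 2.80. Neither group of the RPE1* 21/3 table can have had more than 1036 RPM, and neither group of RPE1 5/3 12/3 more than 759 RPM. At least 1 group of the RPE1* 7/3 table, line or RPE1* libraries 11 to 13, had 1450 RPM or more, which is 1.40 and 1.91 times these limits. Which of the 2 groups it was, the pooled mean cannot tell. The gains of chromosomes 7, 9 and 12, the other control libraries, the sequencing batches that the study's methods mention and the separate normalisation cannot be told apart by it. Ratios to this table also spread widely over all miRNAs. The quartiles of the log2 ratio were −0.94 and 0.47 for RPE1* 7/3 over RPE1* 21/3. For RPE1* 21/3 over RPE1 5/3 12/3 they were −0.29 and 0.45.

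Set against RPE1 5/3 12/3, which has no recorded gain of chromosome 9, hsa-miR-204-5p was again the highest of the chromosome 9 miRNAs. Its log2 ratio was 1.93, and 4 of 218 miRNAs exceeded it. Of 11 chromosome 9 miRNAs, 7 lay above 0 (63.6%) with a median of 0.46, beside 44.5% and a median of −0.11 over all 218. hsa-miR-31-5p was the lowest, with −2.04. This ratio and that over RPE1* 21/3 share the RPE1* 7/3 table. Between RPE1* 21/3 and RPE1 5/3 12/3, neither with a recorded gain of chromosome 9, the log2 ratio of hsa-miR-204-5p was 0.45, the fifth of 10 on the chromosome, and 56 of 223 miRNAs exceeded it. Of the RPM of chromosome 9 miRNAs, hsa-miR-204-5p took 34.998% in RPE1* 7/3 and 10.01% in RPE1* 21/3.

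**Figure D3:**
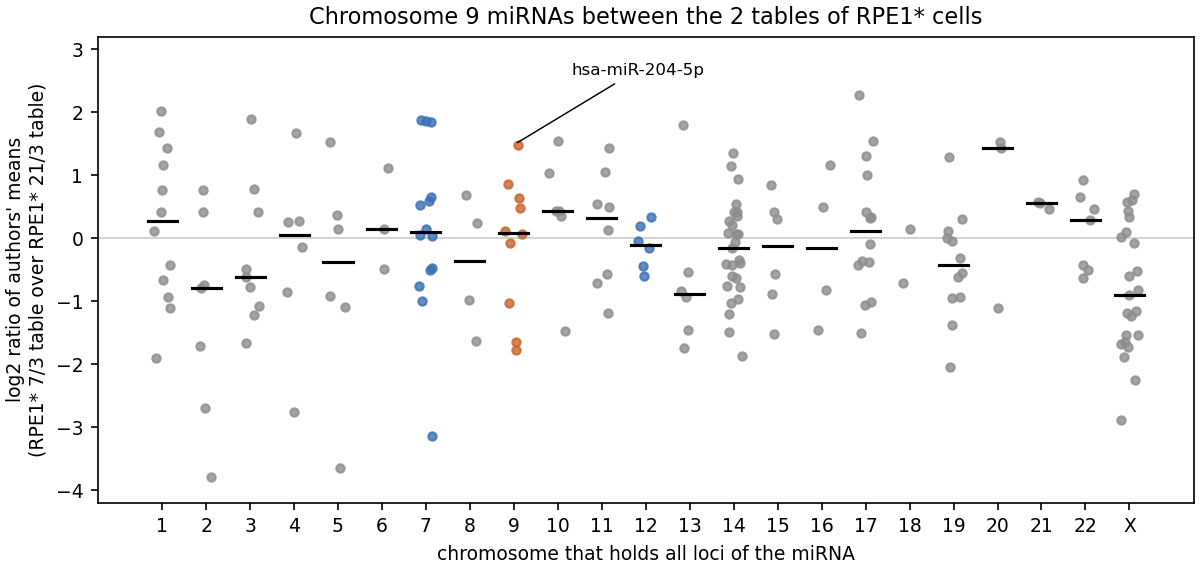
Log2 ratio of the authors' means, in RPM, of the RPE1* 7/3 table over the RPE1* 21/3 table for each miRNA with a mean of at least 10 in both, by the chromosome that holds its loci; bars are medians, blue marks chromosomes 7 and 12 and orange chromosome 9. hsa-miR-204-5p was the highest of the 10 on chromosome 9 at 1.48, whereas the median of that chromosome was 0.09.

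The miRNAs whose levels followed those of hsa-miR-204-5p most closely over the tables came mainly from another chromosome. Likeness was measured by Pearson's r of log2(RPM + 1) over the 7 tables, among the other miRNAs listed in all of them. The 7 tables share control libraries and fall into 2 cell types, so r describes mostly the gap between these. The 5 highest were hsa-miR-369-5p (0.992), hsa-miR-379-5p (0.992), hsa-miR-382-5p (0.991), hsa-miR-411-5p (0.986) and hsa-let-7i-5p (0.964), and on every scale tried the first 4 were among the 5 highest. The first 4 lie on chromosome 14, where they are known as members of a large imprinted cluster, and hsa-let-7i-5p lies on chromosome 12. hsa-miR-379-5p had 4.77 to 7.57 RPM in HCT116 tables and 1175 to 1503 RPM in RPE1 tables. hsa-miR-411-5p had 3.45 to 5.996 RPM and 1032 to 1147 RPM.

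These 5 did not show the step between the RPE1* tables to the extent that hsa-miR-204-5p did. Their ratios of RPE1* 7/3 over RPE1* 21/3 were 1.06 for hsa-miR-369-5p, 1.22 for hsa-miR-379-5p, 1.34 for hsa-miR-382-5p, 0.900 for hsa-miR-411-5p and 0.967 for hsa-let-7i-5p, beside 2.80 for hsa-miR-204-5p. Of 205 miRNAs listed in all tables, 22 (10.7%) were higher in every RPE1 table than in every HCT116 table, and 98 were lower in every RPE1 table. With median-of-ratios factors, which raise RPE1 tables against HCT116 tables, these counts were 43 and 53. By the size of this gap 2 came before hsa-miR-204-5p with its 84.3 times, hsa-miR-411-5p with 172 times and hsa-miR-379-5p with 155 times, and the same number came before it on every scale tried. For hsa-miR-211-5p no such likeness was computed, since only 3 tables list it.

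The labelled cell types were checked against lists of miRNAs. Of 8 pigment epithelium miRNAs 6 were listed in at least 1 table, and among them only hsa-miR-204-5p had all 3 RPE1 tables above the HCT116 tables in RPM. hsa-miR-221-5p had 498 to 554 RPM in RPE1 tables and 410 to 670 RPM in HCT116 tables, hsa-miR-222-5p 20.5 to 38.7 and 21.2 to 47.5 RPM, and hsa-miR-125b-5p 5493 to 11185 and 3596 to 9169 RPM. These 3 are 5p arms, and they overlapped between the cell types in RPM. The 3p arms of the same hairpins were not listed, so the overlap holds for the 5p arms only. With median-of-ratios factors the lowest RPE1 table was 1.59 times the highest HCT116 table for hsa-miR-221-5p and 1.44 times for hsa-miR-125b-5p, and with totals without the 10 most abundant miRNAs 1.30 and 1.11 times. With the means as deposited it was 1.21 times for hsa-miR-125b-5p, whereas hsa-miR-222-5p overlapped on every scale. hsa-miR-184, a defining miRNA of that epithelium, and hsa-miR-187-3p were listed in 0 tables, and hsa-miR-187-5p in 1 table, of HCT116 cells, with 0.770 RPM. As only 12 of 509 listed names end in 3p, the absence of a 3p arm from the tables says little about the cells. The name hsa-miR-184 gives no arm, and the same limit may hold for it, so its absence is not read as a lack in the cells. Without hsa-miR-204-5p and hsa-miR-211-5p, the list summed to 6068 to 11760 RPM in RPE1 tables and 4088 to 9861 RPM in HCT116 tables. hsa-miR-125b-5p made up most of these sums.

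Of the lists for other cell types, those of colon epithelium and neural retina had higher sums in HCT116 tables than in RPE1 tables. The 7 of 9 listed colon epithelium miRNAs summed to 2018 to 3155 RPM in HCT116 tables and 192 to 251 RPM in RPE1 tables. hsa-miR-194-5p overlapped between the cell types, with 16.3 to 139 RPM in HCT116 tables and 3.93 to 24.5 RPM in RPE1 tables. So did hsa-miR-215, with 5.71 to 23.8 and 4.64 to 7.97 RPM. hsa-miR-192-5p had 281 to 586 RPM in HCT116 tables and 166 to 242 RPM in RPE1 tables. hsa-miR-200a-5p, of the family that keeps cells epithelial, had 1138 to 2544 RPM in HCT116 tables. It was listed in 1 RPE1 table, with 0.584 RPM. hsa-miR-200b-5p, hsa-miR-200c-5p and hsa-miR-141-5p were listed in 0 RPE1 tables. These are 5p arms, and their values hold for the 5p arms only. hsa-miR-429 and hsa-miR-375, whose names give no arm, were listed in 0 tables. The 4 of 6 listed neural retina miRNAs summed to 816 to 1461 RPM in RPE1 tables and 22966 to 30133 RPM in HCT116 tables. hsa-miR-124-5p and hsa-miR-124-3p, which mark neurons, were listed in 0 tables, with the same limit for the 3p arm. Of 4 miRNAs of skin melanocytes, 2 were listed, hsa-miR-211-5p itself and hsa-miR-146a-5p, which had 0.984 to 4.58 RPM in 2 RPE1 tables and 0.626 to 2.10 RPM in HCT116 tables.

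**Figure D4:**
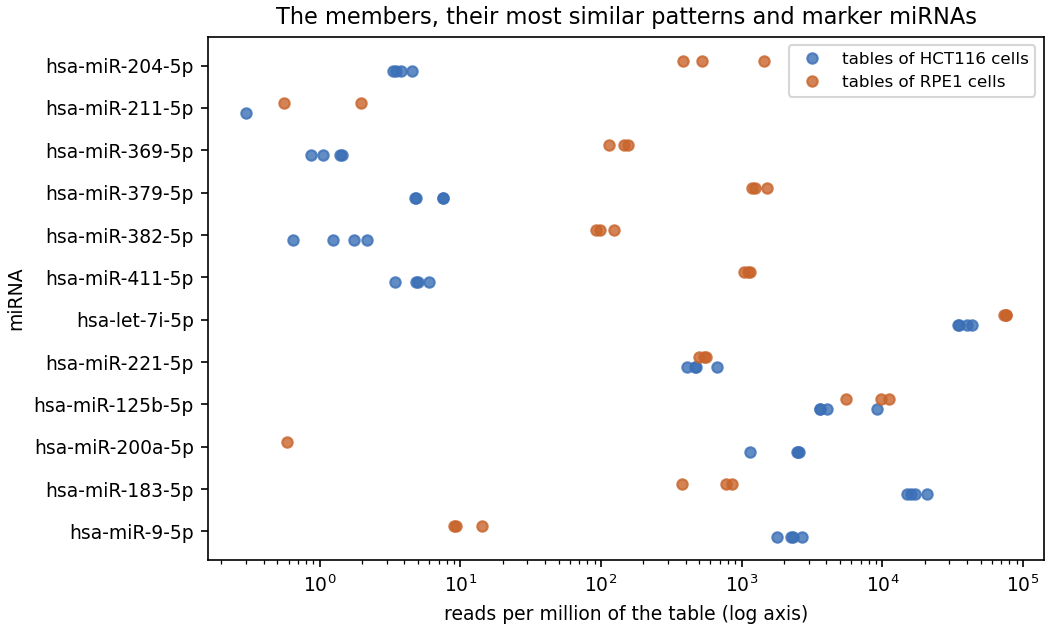
Authors' mean in RPM (log axis) in each table that lists the miRNA, for the pair, the 5 miRNAs most like hsa-miR-204-5p and 5 marker miRNAs, with HCT116 tables in blue and RPE1 tables in orange. hsa-miR-204-5p and 4 chromosome 14 miRNAs were far higher in RPE1 tables, hsa-miR-221-5p overlapped on this scale, and hsa-miR-200a-5p was far higher in HCT116 tables.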

How the data were processed

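Total RNA with small RNAs was taken from 36 cultures in 12 groups of 3. The authors sequenced single reads, trimmed adapters with cutadapt, mapped to hg19, counted miRNAs with mirdeep2 and normalised with DESeq2, whose version is not stated. Each deposited table holds a mean per miRNA, a signal that the authors made from normalised counts of the 6 libraries of a line and its control. The other 35 columns, 5 per table, hold the authors' own comparisons (log2 fold change, its error, test score, p-value and adjusted p-value) and were not used. The planned count model needs values of single libraries, so no line was tested against its control.

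Means were divided by the sum of their table and given as reads per 1000000 (RPM). A minimum mean of 10 in both tables applied to ratios by chromosome. Loci come from GENCODE 44 on GRCh37. Of 509 names, 467 (91.7%) were placed on 1 chromosome, by that annotation and RefSeq names. Mature sequences come from RefSeq of GRCh38.p14, which held 416 of the 509 names.

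The pair, the marker lists and the rules for named miRNAs were chosen with earlier results of these data known. Named miRNAs were the pair, its neighbours in rank, the 5 of most similar pattern, those on chromosome 9 and the marker lists. Scaling steps were tested on simulated data. Python 3.11.15, numpy 2.4.6, pandas 2.3.3, biopython 1.88 and matplotlib 3.10.9 were used.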

Additional observations from a re-analysis of the deposited data

How the results depend on the processing

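The lowest RPE1 table over the highest HCT116 table was 85.9 for hsa-miR-204-5p with the means as deposited. It was 166 with median-of-ratios factors and 153 with the total taken without the 10 most abundant miRNAs. For hsa-miR-211-5p, over only the tables that list it, the same scales gave 2.15, 3.78 and 3.13. The means behind these last ratios lie close to the lowest level listed, so they do not order the cell types. In the same order of scales, RPE1* 7/3 over RPE1* 21/3 was 3.90, 3.14 and 2.98 for hsa-miR-204-5p, RPE1* 7/3 over RPE1 5/3 12/3 was 4.70, 4.37 and 3.498, and the spread over the 3 tables on the HCT116* libraries was 1.45, 1.24 and 1.15. RPE1* 7/3 over 2 times RPE1* 21/3, added after seeing the data, was 1.95, 1.57 and 1.49. The median log2 ratio of chromosome 9 was 0.57, 0.26 and 0.18. With the total over the miRNAs listed in all tables, RPE1* 7/3 over RPE1 5/3 12/3 was 3.83 and that median 0.0914, and with a minimum mean of 100 the median was 0.12 over 7 miRNAs. None of the ratios of hsa-miR-204-5p and hsa-miR-211-5p given here changed direction, whereas those of hsa-miR-221-5p and hsa-miR-125b-5p between the cell types and the median of all miRNAs did, as given with them. No paired analysis was possible because the tables hold no values of single libraries, and for the same reason leaving out replicates could not be run. The low mean of hsa-miR-211-5p, 2.36 to 22.2 reads, and the unknown depth per library limit what its ratios can show.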
